A study of Mus musculus with 4 samples.

Results

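The genes described here belong to the response of cells to double-stranded RNA and to type I interferon. They are a list of 35 mouse genes chosen by symbol and not by their measured values: 13 sensors and signalling genes and 22 induced effectors. Of the 35, 30 had a row among the 19840 genes of the deposited table, and 5 effectors, Isg15, Usp18, Cxcl10, Ccl5 and Mx2, had none. Of the 30, 7 had a mean normalized read count below 10, and the other 23 had an adjusted p.

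The cells were naive mouse embryonic stem cells, grown in 2i/LIF, in which kinase blockers and the cytokine LIF hold them in the ground state of pluripotency. All 4 libraries came from cells that took up a lentiviral plko.1 vector coding for a short hairpin and that survived 2 days of puromycin, so no group was free of virus, hairpin or drug. In 2 libraries (shCtrl) the hairpin was a control, and in 2 (shLincenc1) it was directed at Lncenc1, a long noncoding RNA of naive stem cells. The growth protocol names the lines E14TG2a and R1, each target had 2 designed hairpins, and no label ties a library to a line, a hairpin or a separate culture, so the p-values measure only the spread between these libraries, which may be technical. The table does not say which group was the numerator, so the groups are called by the level of Lncenc1, which was 6400 and 7250 normalized reads in the libraries H1 and H2 of the Lncenc1-high group and 2126 and 2121 in L1 and L2 of the Lncenc1-low group. A log2 fold change is given as Lncenc1-high over Lncenc1-low throughout, so that a negative value means a higher level in the Lncenc1-low group.

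Double-stranded RNA, a by-product of viral replication, is bound in the cytoplasm by the helicases RIG-I (Ddx58) and MDA5 (Ifih1) and in endosomes by Tlr3. The helicases signal through Mavs, Tlr3 through another adaptor, and both routes activate Irf3, which turns on the interferon genes. Secreted interferon then binds the receptor of Ifnar1 and Ifnar2, and a complex that holds Stat2 and Irf9 binds the interferon-stimulated response element (ISRE) in the promoters of the effectors. Pluripotent stem cells are known for a weak interferon response and for a standing level of some effectors, among them the Ifitm genes.

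The ISRE core, GAAA and again GAAA with any 2 bases between them, was searched on both strands of the RefSeq promoters of build GRCm38.p6, each a window of 250 bases before and 50 after a start site. A promoter was given for 27 of the 35 genes, all but Dhx58, Zbp1, Oas2, Mx1, Mx2, Usp18, Parp14 and Ccl5. The core letters were in 14 of the 27 (51.9%), against 1079 of 27025 genes with a promoter (3.99%). By role they were in 11 of 16 effectors (68.8%) and 3 of 11 sensors and signalling genes (27.3%), namely Ddx58, Ifih1 and Stat2. The letters TTC and GAA with 3 bases between them, the core of the element bound by STAT dimers, were in 9 of the 27 (33.3%), against 9.55% of all genes. The stretches shown first are those of Oas1a, the member with the smallest p here, of Ifitm2, the most abundant one, and of Bst2, followed by Rsad2 and Ifit1, which had almost no reads, and Isg15, which had no row. Capitals mark the ISRE core letters on either strand, overlapping copies joined, and each stretch ends at or before the start site and reads 5′ to 3′ along the gene's strand.
Oas1a, chr5:120907526-120907570, minus strand: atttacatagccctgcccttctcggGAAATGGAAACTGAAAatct
Ifitm2, chr7:140955973-140956032, minus strand: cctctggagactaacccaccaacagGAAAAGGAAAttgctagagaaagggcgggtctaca
Bst2, chr8:71537562-71537627, minus strand: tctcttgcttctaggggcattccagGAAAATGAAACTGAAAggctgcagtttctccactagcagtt
Rsad2, chr12:26456538-26456597, minus strand: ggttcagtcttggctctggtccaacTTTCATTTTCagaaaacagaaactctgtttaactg
Ifit1, chr19:34640760-34640838, plus strand: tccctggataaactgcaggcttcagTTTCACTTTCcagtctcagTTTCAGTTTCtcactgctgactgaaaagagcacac
Isg15, chr4:156200850-156200921, minus strand: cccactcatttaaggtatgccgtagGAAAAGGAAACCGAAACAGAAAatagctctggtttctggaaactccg

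The core thus stood in promoters of abundant and of nearly silent members alike. A match of letters is a description of the sequence, and no binding was measured.

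Whole reads per library, worked out from the deposited means of 19807 genes, summed to 25682213 in H1, 10641792 in H2, 10887088 in L1 and 10323584 in L2. All 10 markers of naive stem cells were abundant, with summed levels of 75370 to 90740 normalized reads per library, and 8 of them were higher in both Lncenc1-high libraries than in both Lncenc1-low ones, against 20.6% of all genes. The authors' deposited table called 0 of the 10, and 4 had an unadjusted p under 0.05, against 8.82% of all genes, with Nanog, Tbx3 and Dppa5a toward the Lncenc1-high group and Fbxo15, the smallest p, toward the Lncenc1-low group. The 6 fibroblast markers with a row summed to 229.5 and 194.4 normalized reads in the Lncenc1-high libraries and 391.9 and 307.7 in the Lncenc1-low ones, mostly Fbn1, with Col3a1 at 0 to 2.465 reads. The 7 leukocyte markers summed to 224.3 to 375.1, mostly Cd68, with Ptprc and Csf1r at 0 to 6.272, and the 6 primitive endoderm markers summed to 53.9 to 66.49. The part of these differences in the values below was not tested.

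None of the 23 members with an adjusted p was called as different between the groups. At an adjusted p under 0.05 the authors' deposited table (DESeq2) called 0 of 23, against 1.53% of all 14070 genes tested and 1.02% for genes higher in the Lncenc1-low group, and limma voom on the recovered reads also called 0, against 0.0570% of all genes. At an unadjusted p under 0.05 there was 1 of these 23 members, Oas1a, higher in the Lncenc1-low group. The background in the authors' deposited table was 8.82% of all genes in either direction and 5.28% in that direction, so 1 of 23 lies near it. The median log2 fold change of the members in the authors' deposited table was 0.02, beside -0.01 for all genes. Values ranged from -2.40 (Ifih1) to 1.45 (Mx1), and 16 of 23 lay within 0.5 of 0, beside 10536 of all 14070 genes tested. Of the 23, 13 had a positive and 10 a negative value, and 15 changed sign in at least 1 alternative fit, none of these with a call. Fewer cells with a transcript and less transcript per cell cannot be told apart in these bulk libraries.

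**Figure D1:**
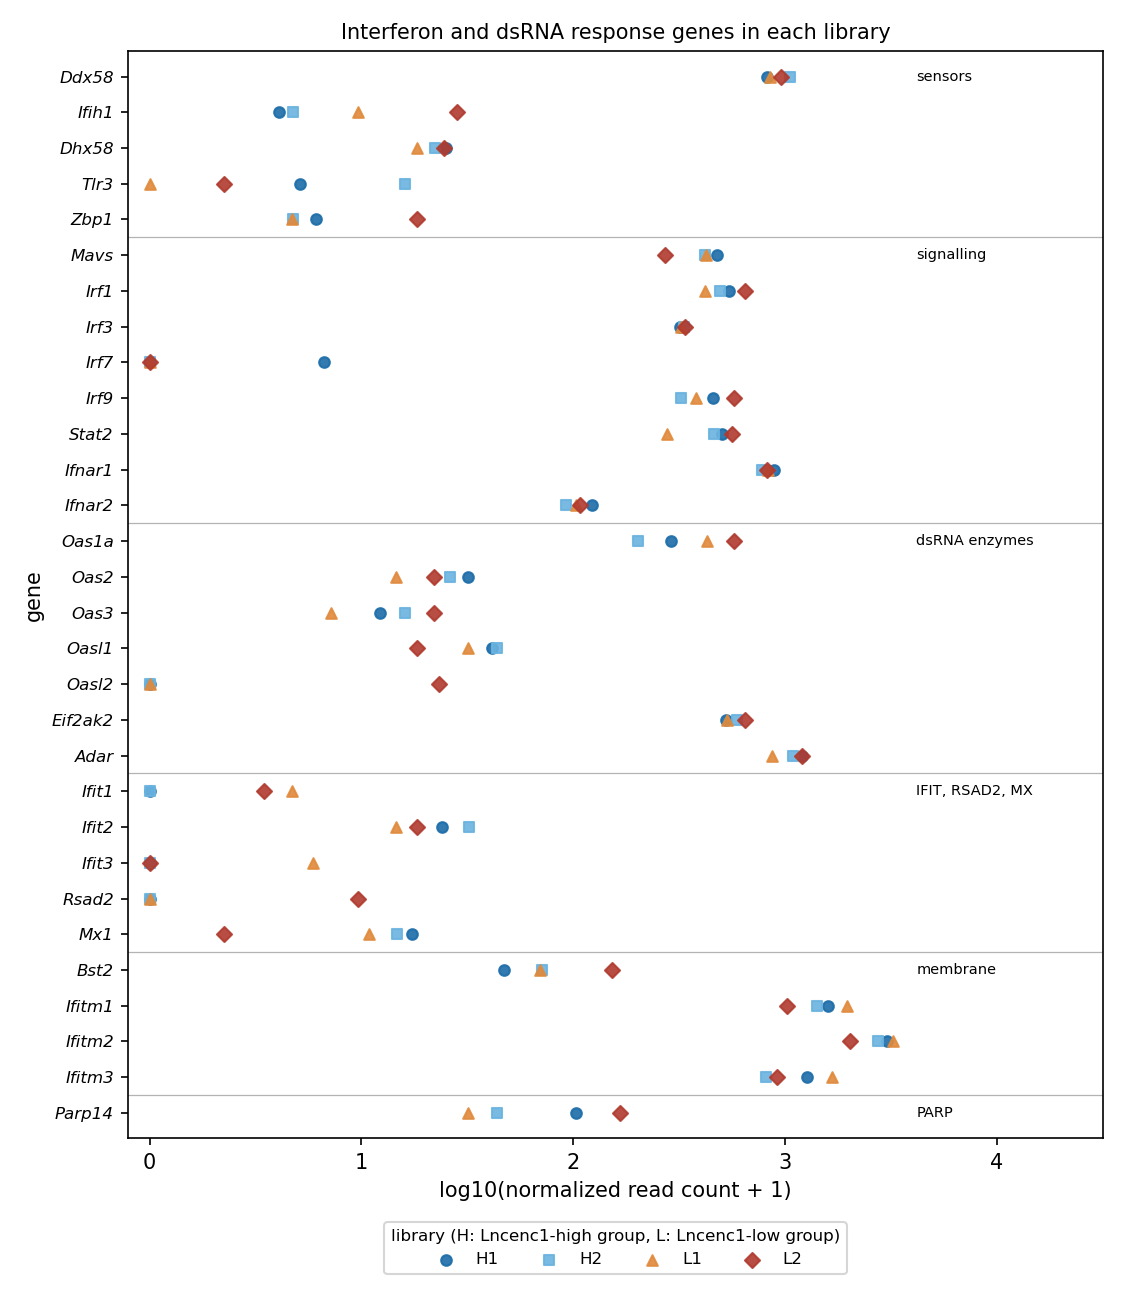
Level of the 30 members with a row in each of the 4 libraries, as log10 of the normalized read count plus 1, with 1 point per library and the genes in rows grouped by role. Ddx58, Mavs, Irf1, Irf3, Irf9, Stat2, Ifnar1, Oas1a, Eif2ak2, Adar and the Ifitm genes were well above 100 normalized reads in all 4 libraries, while Irf7, Ifit1, Ifit3, Rsad2 and Oasl2 were at 0 in 2 or more.

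**Figure D2:**
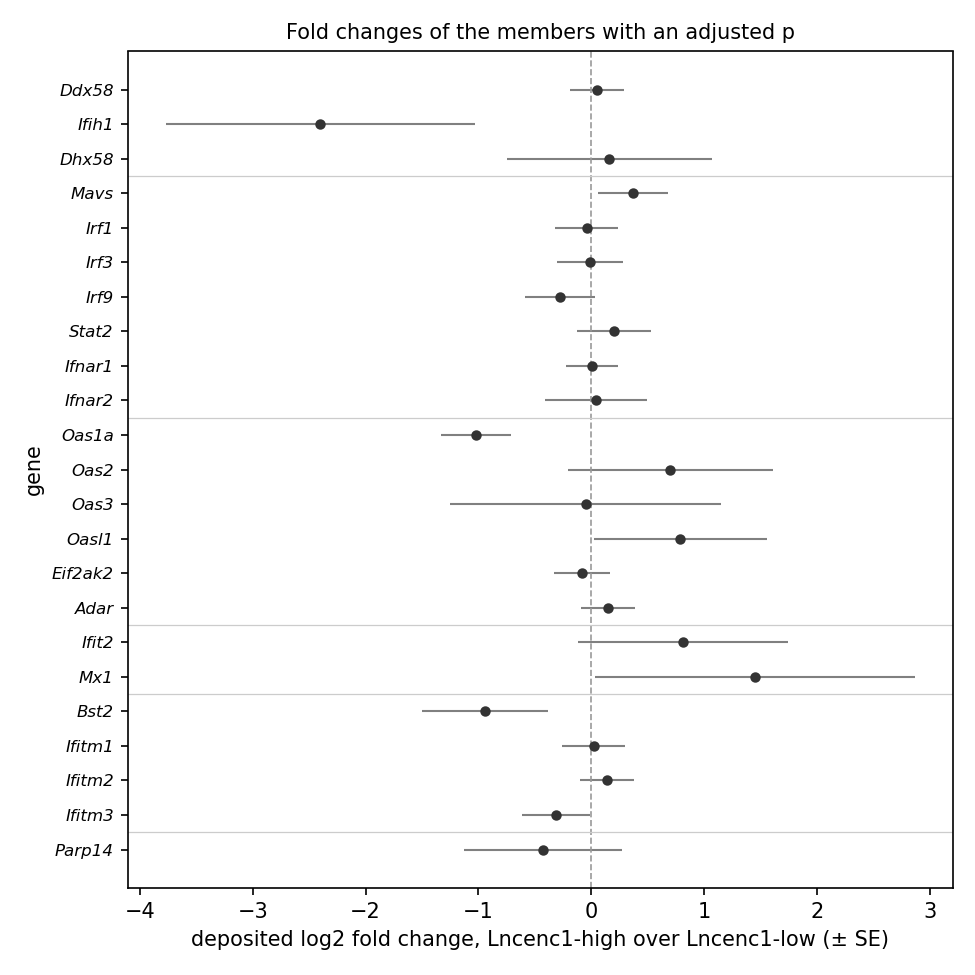
The authors' deposited log2 fold change (DESeq2) of the 23 members with an adjusted p, Lncenc1-high over Lncenc1-low, with bars of 1 standard error. Values left of 0 are higher in the Lncenc1-low group, and the widest bars belong to Ifih1, Mx1 and Oas3, whose means are 10.66, 10.33 and 13.38 normalized reads.

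The sensors of double-stranded RNA were led by Ddx58, and the other sensors had few reads. Per kilobase of exonic length Ddx58 stood at 131 normalized reads, Dhx58 at 6.59, Zbp1 at 2.12, Ifih1 at 1.31 and Tlr3 at 0.979. Ddx58, the helicase for short RNA with a 5′ triphosphate, had 821.9 normalized reads in H1, 1054 in H2, 850.3 in L1 and 962.7 in L2. The lowest and the highest library were both of the Lncenc1-high group, and the authors' deposited table gives a log2 fold change of 0.05 ± 0.24 (SE), with a 95% interval of -0.42 to 0.51.

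Ifih1, the helicase for long double-stranded RNA, had the most negative fold change of the 23 members with an adjusted p but the fewest reads of any sensor tested. Its reads were 6 in H1, 3 in H2, 7 in L1 and 22 in L2, or 3.08, 3.763, 8.626 and 27.19 after normalization. Both Lncenc1-low libraries lay above both Lncenc1-high ones, with L2 well above L1. The authors' deposited table gives Ifih1 a log2 fold change of -2.40 ± 1.37 (SE) and a DESeq2 adjusted p of 0.679, and without L2 the refitted value was -1.35.

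Dhx58 (LGP2), a related helicase that modulates the others, had 24.13, 21.33, 17.25 and 23.48 normalized reads in H1, H2, L1 and L2, which overlap between the groups. Tlr3, the endosomal sensor, had 8 reads in H1, 12 in H2, 0 in L1 and 1 in L2, and so was seen almost wholly in the Lncenc1-high libraries. The mean of Tlr3 was below 10, it has no adjusted p, and its unadjusted DESeq2 p in the authors' deposited table was 0.0936. Zbp1, a sensor of nucleic acids in the Z conformation, had 10, 3, 3 and 14 reads in the same order, with its highest normalized level, 17.3, in L2.

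The signalling genes were present in all 4 libraries apart from Irf7, and no gene of this group separated the groups. Mavs, the adaptor of the helicases on mitochondria, had 475.4 normalized reads in H1, 419.0 in H2, 421.5 in L1 and 270.7 in L2. Only L2 stood apart, on the low side, and the log2 fold change of Mavs in the authors' deposited table was 0.37 ± 0.31 (SE), with a DESeq2 adjusted p of 0.901. Without L2 its refitted value was 0.09.

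Irf3, the factor that Mavs activates, was the steadiest of them, at 318.8, 331.2, 320.4 and 334.9 normalized reads in H1, H2, L1 and L2. The 95% interval of its log2 fold change in the authors' deposited table ran from -0.58 to 0.55, far wider than the spread of these 4 values. Irf7, the interferon-induced factor that amplifies the response, had 11 reads in H1 and 0 in each other library, where 0 allows up to 3.76 normalized reads in H2, 3.70 in L1 and 3.71 in L2 by counting error.

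Both receptor chains were measured. Ifnar1 had 890.7, 777.8, 831.8 and 823.1 normalized reads in H1, H2, L1 and L2, and Ifnar2 had 122.2, 91.58, 102.3 and 106.3. Per kilobase of exonic length that is 140 for Ifnar1 and 31.7 for Ifnar2. In the authors' deposited table the log2 fold changes were 0.01 ± 0.23 (SE) for Ifnar1 and 0.04 ± 0.45 (SE) for Ifnar2, and in both genes the Lncenc1-low libraries lay between the Lncenc1-high ones.

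The factors that carry the signal from the receptor, and Irf1, differed more within the Lncenc1-low group than between the groups. Stat2 had 504.6 normalized reads in H1, 461.7 in H2, 277.3 in L1 and 562.3 in L2, so that L1 was the lowest and L2 the highest library. Irf1, an interferon-induced activator, had 545.7, 495.5, 419.0 and 648.8, again with L1 lowest and L2 highest. Irf9, the partner of Stat2 that binds DNA, had 459.0, 323.7, 379.6 and 577.1, with L2 highest. The log2 fold changes per the authors' deposited table were 0.20 ± 0.33 (SE) for Stat2, -0.04 ± 0.28 for Irf1 and -0.28 ± 0.31 for Irf9. Without L2 the refitted fold change of Stat2 was 0.80, and without L1 it was -0.22, a change of sign with no call in either case.

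Among the effectors that bind double-stranded RNA, Oas1a had the smallest p of all members. Oas1a makes 2′-5′ oligoadenylate on double-stranded RNA, which activates the nuclease RNase L. It had 289.0 normalized reads in H1, 202.0 in H2, 428.8 in L1 and 574.7 in L2, so the Lncenc1-high mean was 245.5 ± 61.6 (SD, n = 2) and the Lncenc1-low mean 501.8 ± 103 (SD, n = 2). The libraries of the groups did not overlap. The authors' deposited table gives Oas1a a log2 fold change of -1.02 ± 0.31 (SE), with an unadjusted DESeq2 p of 9.93e-04 and an adjusted p of 0.0605, which misses the threshold. With library totals in place of size factors the refitted value was -1.05 at an adjusted p of 0.0481, the only case among 200 pairs of a member and a setting with an adjusted p under 0.05, and with voom it was -0.95 at 0.298. Without H1, H2, L1 or L2 it was -1.31, -0.80, -1.22 or -0.80. Because the groups did not overlap, leaving out 1 library could not change the sign.

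Oas1a lies in a family of near copies whose reads can be split or lost in counting, so its level is uncertain. Oas1g, a paralog looked at after the values of Oas1a were seen, had 168.4 normalized reads in H1, 133.0 in H2, 210.7 in L1 and 370.8 in L2, with no overlap of the groups either. Its log2 fold change in the authors' deposited table was -0.94 ± 0.38 (SE), with a DESeq2 adjusted p of 0.295. The other copies had few reads. Oas1d was higher in the Lncenc1-high libraries, with 21.56, 17.56, 6.162 and 4.943 normalized reads in H1, H2, L1 and L2. Its log2 fold change in the authors' deposited table was 1.82 ± 1.23 (SE), with a DESeq2 adjusted p of 0.789. The related enzymes did not share the pattern of Oas1a in these libraries. Oas2 had 30.8, 25.09, 13.56 and 21.01 normalized reads, higher in both Lncenc1-high libraries, with a log2 fold change of 0.70 ± 0.91 (SE) per the authors' deposited table. Oas3, with 11.29, 15.05, 6.162 and 21.01, was lowest in L1 and highest in L2, at -0.05 ± 1.20 in the authors' deposited table.

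The Oas-like genes had fold changes of opposite sign, with no call for Oasl1 and no test of Oasl2 at an adjusted p. Oasl1 had 40.56 and 42.65 normalized reads in the Lncenc1-high libraries and 30.81 and 17.3 in the Lncenc1-low ones, a log2 fold change of 0.79 ± 0.77 (SE) per the authors' deposited table. Oasl2 had 18 reads in L2 and 0 in H1, H2 and L1. Against a floor of 3 reads over the Lncenc1-high group, Oasl2 was at least 10.2-fold higher in the Lncenc1-low group, all of it from L2, and it has no adjusted p.

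The kinase and the editing enzyme, which also bind double-stranded RNA, were abundant and close in all libraries. Eif2ak2 (PKR), which stops translation by phosphorylating eIF2α, had 526.2, 590.9, 532.4 and 647.6 normalized reads in H1, H2, L1 and L2, with a log2 fold change of -0.08 ± 0.25 (SE) per the authors' deposited table. Adar, which converts adenosine to inosine in double-stranded RNA and keeps a cell's own RNA from the sensors, had 1208, 1094, 870.0 and 1199. The value of Adar in L1 was the lowest, L2 lay within the Lncenc1-high group, and the log2 fold change in the authors' deposited table was 0.15 ± 0.24 (SE), with a 95% interval of -0.31 to 0.62.

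The effectors that are nearly off in resting cells stayed at a few reads. Ifit1 and Ifit3, which bind foreign RNA, had 0 reads in both Lncenc1-high libraries, with 3 and 2 reads of Ifit1 and 4 and 0 reads of Ifit3 in L1 and L2. Ifit3 has a near-identical copy, so its count is uncertain. Rsad2 (viperin), which makes a chain-terminating nucleotide, had 7 reads in L2 and 0 elsewhere. Ifit2 was measured in all libraries, at 23.1, 31.36, 13.56 and 17.3 normalized reads in H1, H2, L1 and L2. It was higher in both Lncenc1-high libraries, at a log2 fold change of 0.81 ± 0.93 (SE) per the authors' deposited table. Mx1, a GTPase that traps viral nucleocapsids, had 32 reads in H1, 11 in H2, 8 in L1 and 1 in L2, and the largest positive log2 fold change of the 23 members with an adjusted p, 1.45 ± 1.42 (SE), in the authors' deposited table. Its value without L2 was 0.62 in the refit.

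The Ifitm genes, membrane proteins that block the entry of viruses, were the 3 most abundant members per length. Per kilobase of exonic length Ifitm2 stood at 4221 normalized reads, Ifitm3 at 1716 and Ifitm1 at 1372, while the next member, Oas1a, was at 198. Ifitm2 had 3039, 2755, 3242 and 2022 normalized reads in H1, H2, L1 and L2, Ifitm1 had 1599, 1421, 1958 and 1027, and Ifitm3 had 1264, 810.4, 1667 and 912.1. In all 3 genes L1 was the highest library, and in Ifitm1 and Ifitm2 L2 was the lowest. The log2 fold changes per the authors' deposited table were 0.14 ± 0.24 (SE) for Ifitm2, 0.02 ± 0.28 for Ifitm1 and -0.31 ± 0.30 for Ifitm3. These genes are near copies of one another, so the split of reads among them is uncertain.

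Bst2 (tetherin), which holds budding virus at the membrane, followed another order. It had 46.2 normalized reads in H1, 70.25 in H2, 69.01 in L1 and 152 in L2, so L2 was apart and L1 lay within the Lncenc1-high group. The authors' deposited table gives Bst2 a log2 fold change of -0.94 ± 0.56 (SE) and a DESeq2 adjusted p of 0.71, and without L2 the refit gave -0.26. Parp14, an ADP-ribosyltransferase induced by interferon, had 102.2, 42.65, 30.81 and 165.6 normalized reads, and it alone among the members tested differed at least 2-fold between H1 and H2, against a background of 7.39% of all genes. Its log2 fold change was -0.43 ± 0.70 (SE) per the authors' deposited table and 1.25 in the refit without L2.

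Added over the 30 genes, the members reached 12376 normalized reads in H1, 11112 in H2, 12513 in L1 and 11166 in L2, a log2 ratio of -0.01 between the group means. Without Ifitm1, Ifitm2 and Ifitm3 the sum was 6474, 6126, 5645 and 7205. The effectors without the Ifitm genes summed to 2294, 2128, 2014 and 2850. In both of the latter sums L1 was the lowest and L2 the highest library, and the Lncenc1-high libraries lay between them.

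Differences between L1 and L2 were larger than those between H1 and H2 for these genes. The median absolute log2 difference was 0.63 between L2 and L1 and 0.25 between H2 and H1 over the 23 members tested, beside 0.35 and 0.20 over all genes with reads in every library. L2 was at least 2-fold above L1 for 5 of the 23, Ifih1, Stat2, Oas3, Bst2 and Parp14, against 8.53% of all genes. L1 was that far above L2 for 1, Mx1, against 7.96%. Reads in L1 and L2 were few for Ifih1 (7 and 22), Oas3 (5 and 17) and Mx1 (8 and 1), so counting error is large there. The background was not matched for level, and the greater depth of H1 was not allowed for. L2 was the highest library for 10 of the 23, against 31.7% of all genes. Both Lncenc1-low libraries lay above both Lncenc1-high ones for 2 members, Ifih1 and Oas1a, against 20.7% of all genes, and the reverse held for 4, Oas2, Oasl1, Ifit2 and Mx1, against 20.6%. The other 17 overlapped. Whether a hairpin, a cell line or a culture sets L2 apart from L1 was not tested, since the labels tie none of them to a library.

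**Figure D3:**
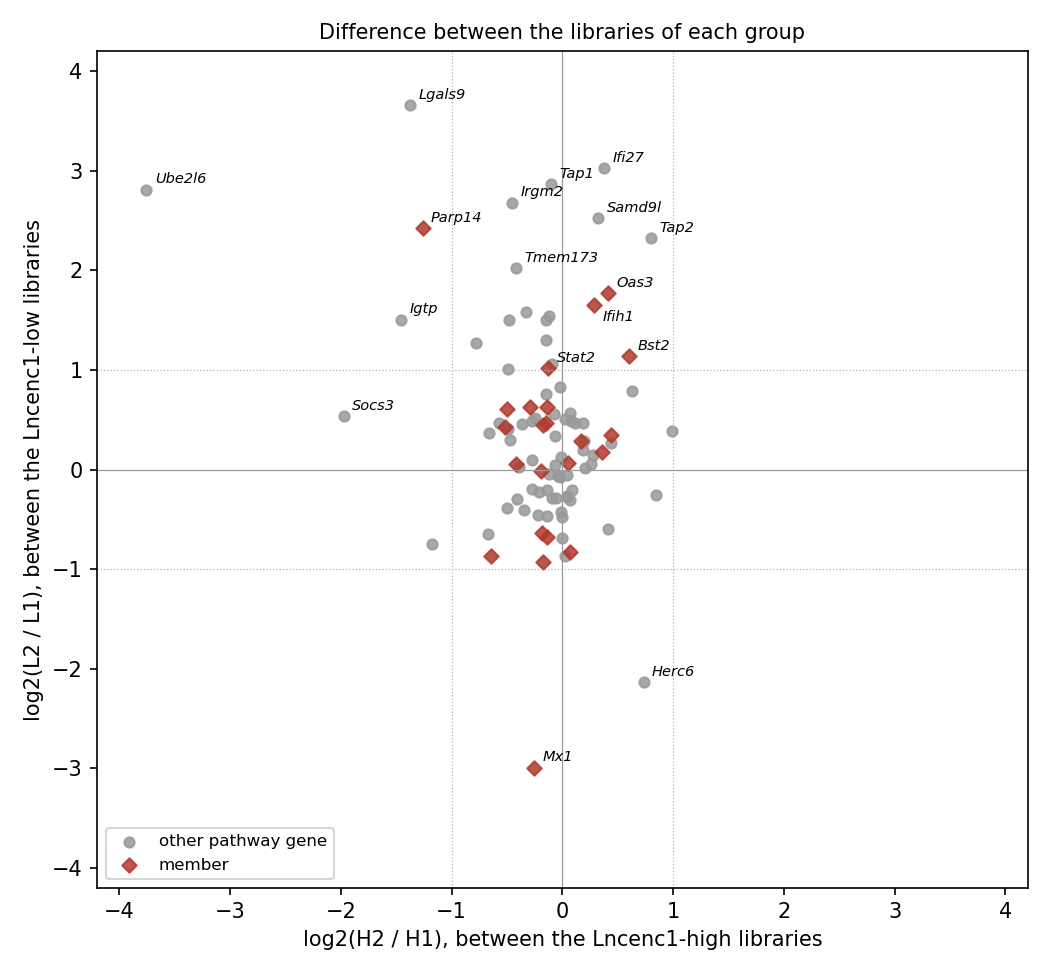
Log2 ratio of L2 to L1 (vertical) against that of H2 to H1 (horizontal) for the members (diamonds) and the other pathway genes (circles) that were tested and had reads in every library, with dotted lines at a 2-fold difference. Of the members, 5 lie above the upper dotted line and 1, Mx1, below the lower one, and of the 73 other pathway genes 17 lie above and 1, Herc6, below.

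Of the 5 members at least 2-fold higher in L2 than in L1, 4 had the ISRE core letters in the promoter, and Parp14 has no promoter in the RefSeq table. Of 9 tested members with the letters, 4 differed that much (Ifih1, Stat2, Oas3 and Bst2), and of 10 with a promoter and no letters, 0 were. The median log2 ratio of L2 to L1 was 0.42 for the former and 0.06 for the latter. In the wider pathway list the count was 5 of 10 with the letters and 8 of 51 without. Among all other genes it was 9.94% of 342 with the letters and 8.06% of 10105 without. Between the groups, the median log2 fold change in the authors' deposited table was -0.08 for the 9 members with the letters and 0.03 for the 10 without. This split was made after the levels in L1 and L2 were seen and is a description of 1 library against another.

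The wider pathway was read from a list of 104 other genes of interferon signalling, RNA sensing, antigen presentation and double-stranded RNA handling, of which 93 had a row and 74 an adjusted p. Of these 74, the authors' deposited table called 2 at a DESeq2 adjusted p under 0.05, both higher in the Lncenc1-low group and 0 higher in the Lncenc1-high group, against 1.53% of all genes in either direction, and the median log2 fold change was -0.02. Voom called 0 of the 74, and 7 had an unadjusted p under 0.05 in the authors' deposited table, 6 of them toward the Lncenc1-low group, against 8.82% and 5.28% of all genes, so the first share lies near the background. Without L2, and likewise without H2, the refit called 0 of the 73 genes other than Gbp2, which has no reads in the Lncenc1-high group and could not be refitted.

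The called genes were Parp12 and Gbp2. Parp12, an interferon-induced ADP-ribosyltransferase that binds RNA, rose in the Lncenc1-low group, with 203.8 normalized reads in H1, 145.5 in H2, 308.1 in L1 and 620.4 in L2. The libraries did not overlap, although L2 was 2-fold above L1. The authors' deposited table gives Parp12 a log2 fold change of -1.40 ± 0.37 (SE) and a DESeq2 adjusted p of 0.0183, while the refit without L2 gave -0.81 at an adjusted p of 1.0, that without H1 0.066 and that without H2 0.379. Gbp2, a GTPase that attacks membranes of pathogens, had 0 reads in H1 and H2, 1 in L1 and 37 in L2, at least 21.5-fold higher in the Lncenc1-low group against a floor of 3 reads over the other group. Its call, at a DESeq2 adjusted p of 0.0416 in the authors' deposited table, rests on L2. Gbp2b, a relative looked at after these values were seen, had 56 reads in L2 and 0 in the other 3 libraries, and the assignment of reads between such relatives is uncertain.

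The genes next in order by p did not pass the adjusted threshold, and most were highest in L2. Sp110, a nuclear body protein, was the exception, with 124.7, 55.2, 324.1 and 192.8 normalized reads in H1, H2, L1 and L2 and an adjusted DESeq2 p of 0.0602 in the authors' deposited table. Lgals9, a galectin, had 9.754, 3.763, 9.859 and 124.8. Tap1, a peptide transporter for antigen presentation, had 39.02, 36.38, 91.19 and 666.1. Ifi35, an interferon-induced regulator, had 80.09, 124.2, 141.7 and 244.7, and Tmem173 (STING), the adaptor for cytosolic DNA sensing, had 45.18, 33.87, 38.2 and 155.7. In Lgals9 and Tmem173 L1 lay at or near the level of the Lncenc1-high libraries, and the adjusted DESeq2 p-values of these 4 genes in the authors' deposited table ran from 0.0768 for Lgals9 to 0.588 for Tmem173.

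**Figure D4:**
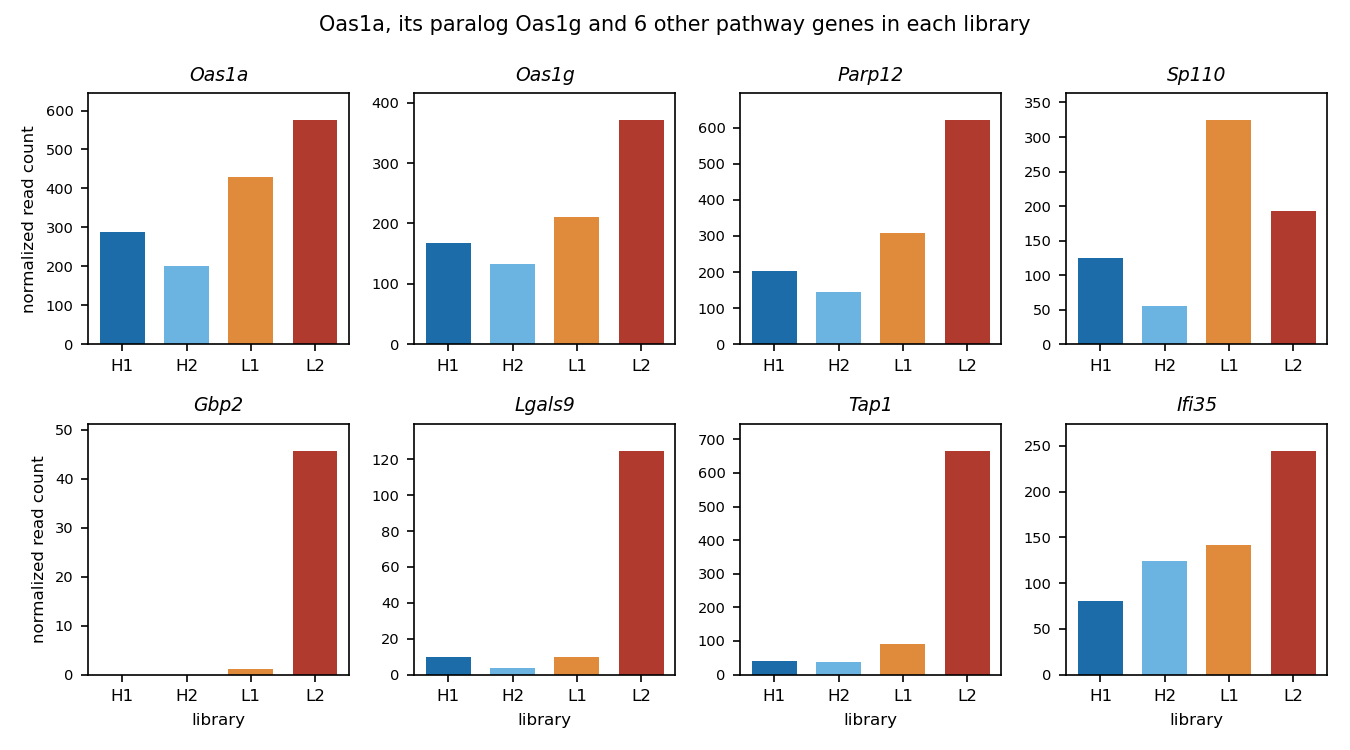
Normalized read count of Oas1a, its paralog Oas1g and 6 other pathway genes in the 4 libraries, 1 bar per library on an axis from 0 that differs between panels. In Oas1a, Parp12 and Sp110 both Lncenc1-low libraries are well above both Lncenc1-high ones, while in Gbp2, Lgals9 and Tap1 the level in L2 is far above the other 3.

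Of 11 tested genes of the receptors and the JAK-STAT pathway outside the members, the authors' deposited table called 0, against 1.53% of all genes. Ifngr2 alone had an unadjusted DESeq2 p under 0.05 there, and 1 of 11 lies near the background of 8.82% of all genes. The kinases of the receptor stood at 0.01 ± 0.22 (SE) for Jak1 and -0.12 ± 0.25 for Tyk2, and Tbk1, which phosphorylates Irf3, at 0.14 ± 0.25, all as log2 fold changes per the authors' deposited table. Ifngr2, a chain of the receptor for interferon gamma, went toward the Lncenc1-high group, with 227.9, 227.1, 161.4 and 100.1 normalized reads and an adjusted DESeq2 p of 0.515 in the authors' deposited table.

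Antigen presentation genes, which interferon raises in most cells, differed between L1 and L2. Of 7 tested, 0 were called in the authors' deposited table, against 1.53% of all genes. There 1, Tap1, had an unadjusted DESeq2 p under 0.05, against 8.82% of all genes. L2 was at least 2-fold above L1 for 5 of the 7, against 8.53% of all genes with reads in every library. L1 was the lowest library for 4, against 3667 of 14037 among all genes tested. The 11 genes of this group with a row summed to 1268 normalized reads in H1, 1152 in H2, 908.2 in L1 and 2625 in L2. The 12 tested genes of double-stranded RNA handling, such as Dicer1 and Dhx9, all had a log2 fold change within 0.5 of 0. That held for 10536 of all 14070 genes tested in the authors' deposited table. Of the 12, 0 were at least 2-fold apart between L1 and L2, against 2293 of 13910 genes with reads in every library. Their median SE was 0.23, beside 0.45 for the 7 antigen presentation genes, and the 2 sets were not matched for level.

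The interferon genes themselves were at or near 0. Of 8 named, 3 had a row, Ifna2, Ifna4 and Ifnk, and their summed level was 0 in H1, 1.254 normalized reads in H2, 9.859 in L1 and 0 in L2. The largest count was 4 reads, of Ifna4 in L1, and L2, where several interferon-induced genes were highest, had 0 reads of all 3. A count of 0 allows up to 3.71 normalized reads per gene in L2.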

How the data were processed

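Total RNA of 4 libraries was depleted of ribosomal RNA and sequenced strand-specifically, per the labels' protocols. TopHat2, HTSeq, DESeq2 1.8.2 and mm9 were used per the submitters' processing notes, while the strand setting of the counting was not given in the sources used here. Per the file headers, the authors deposited a mean of normalized reads (a signal of at least 0), a log2 fold change with its log2 standard error, a Wald score, a p-value and an adjusted p-value for each of 19840 genes, with no value per library. These are the main results, at an adjusted p under 0.05.

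Reads per library were recovered here as the whole numbers that give each deposited mean to 15 digits and refit its fold change, within 0.00001 where several did and within 0.001 where 1 did. For means under 40 a lone solution was taken as it stood. This gave reads for 99.83% of genes. The 33 others have means from 5351 upward and make up 15.0% of the sum of all means. The size factors are 1.948, 0.797, 0.811 and 0.809 for H1, H2, L1 and L2, so 3 reads are 1.54, 3.76, 3.70 and 3.71 normalized reads. Floors cover the counting error of 0 reads only, and a fold against a floor carries no error of the other group. The recovered reads entered the values per library, limma 3.58.1 voom and a negative binomial Wald refit at the dispersions that the deposited errors imply, which gave the fits without 1 library, in which a lone library was taken to vary like the other group's, and with library totals. Reads were simulated for 14032 genes, few of them changed, at the same dispersions that the refit was given. The refit called 32% of the genes changed 2-fold and 68% of those changed 4-fold, and voom 22% and 64%. Without L2 the refit called 8% and 64%. Unchanged genes called numbered 3 in the refit and 24 with voom. On the recovered reads voom called 8 genes, against 215 in the authors' deposited table, a gap that the simulated shares do not show.

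Genes were matched by Ensembl identifier without version. Exonic lengths are from GENCODE M21, another build than the authors'. Members, lists and alternatives were chosen with earlier results of these data known. Every member is accounted for, with values per library for those with an unadjusted p under 0.05, the 3 most abundant of each role and Mavs, Ifih1, Ddx58, Eif2ak2 and Adar, and some others after their values were seen. Of the wider list the called genes, the next 8 by p, and Jak1, Tyk2 and Tbk1 are named, except genes that are not reported here.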

Additional observations from a re-analysis of the deposited data

How the results depend on the processing

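The number of members called was 0 in every setting run but library totals, where it was 1 (Oas1a). Members with an unadjusted p under 0.05 toward the Lncenc1-low group numbered 2 with no filter on low means, where Oasl2 joins Oas1a, and 1 to 2 when 1 library was left out, with 2 without L1. The member median log2 fold change was 0.09 with voom and ran from -0.04 to 0.10 when 1 library was left out. Of the wider list, 1 gene was called with no filter on low means, 1 at a mean of at least 50, 0 with voom, 1 in the negative binomial refit, 1 with library totals and 0 to 2 when 1 library was left out. Gbp2 has no reads in the Lncenc1-high group and could not be refitted, which lowers the refitted counts by its call. With no filter on low means the DESeq2 adjusted p of Gbp2 was 0.0586. At a mean of at least 50 Gbp2, with a mean of 11.74, was left out. Parp12 was the gene called in both of those settings. The cause of the other changes was not tested. Over the genes named singly, 237 pairs of gene and setting kept direction and side of the threshold, 6 lost a call, 3 gained one and 27 changed sign, 0 of these with an adjusted p under 0.05. The changes of sign fell on 16 genes, 15 of them members. With voom, log2 fold changes of the other sign were 0.01 for Irf1, 0.08 for Oas3 and 0.10 for Parp14, and with library totals -0.01 for Ifnar1. When 1 library was left out, log2 fold changes ran from -1.97 to 0.06 for Tmem173, -0.14 to 0.22 for Ddx58, -0.04 to 0.40 for Dhx58, -0.32 to 0.31 for Irf1, -0.04 to 0.02 for Irf3, -0.56 to 0.05 for Irf9, -0.22 to 0.80 for Stat2, -0.09 to 0.11 for Ifnar1, -0.19 to 0.23 for Ifnar2, -0.68 to 1.09 for Oas3, -0.22 to 0.07 for Eif2ak2, -0.06 to 0.40 for Adar, -0.37 to 0.56 for Ifitm1, -0.16 to 0.52 for Ifitm2, -0.68 to 0.19 for Ifitm3 and -1.20 to 1.25 for Parp14. No paired analysis was possible because the deposited table holds no column per library, so replicate numbers cannot be tied to H1, H2, L1 or L2. Depth limits Ifih1, Tlr3, Mx1, Oas3 and the Ifit genes, with at most 45 reads in any library.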
